A study of Mus musculus with 5 samples.

Results

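Milk protein genes encode the major secreted proteins of the lactating mammary gland, and 9 of them were followed here in tumors of MMTV-PyMT mice, an FVB/N model in which polyoma middle T is expressed in the mammary epithelium from the mouse mammary tumor virus promoter. They were chosen by name, with earlier results of these data known. The list holds the caseins Csn1s1, Csn1s2a, Csn1s2b, Csn2 and Csn3, the whey proteins Lalba and Wap, and Glycam1 and Pip. All 9 had a row among the 31053 genes counted, and all 9 passed the filter on low counts in epithelial cells. Mice had received the anti-VEGF-A antibody B20-4.1.1 or isotype IgG2a (clone C1.18.4) at 5 mg/kg into the peritoneum, with 2 doses a week for 6 weeks from 7 weeks of age. Both groups therefore carried the oncogene, and no tumor-free gland was analysed here. Sorted DAPI-negative cells of 3 tumors were joined in 1 droplet library, called a pool. There were 2 isotype pools with 6 tumors and 3 B20-4.1.1 pools with 9 tumors. The study divided treated tumors by their degree of hypoxia, and the labels do not give that class, so the B20-4.1.1 group was taken whole. The labels mark each mouse in a pool by its own multiplexing oligonucleotides, and the tumor was taken as the replicate. No pool mixed the treatments, and the effects of pool and treatment therefore cannot be told apart. Every edgeR p-value over tumors below treats the tumors of a pool as independent. The voom fits, with pool as a random block, allow for likeness within a pool.

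Of 30340 deposited cells, 19533 were kept. Epithelial cells were those with at least 5 UMIs of Epcam, Krt8 and Krt18 together and none of Ptprc, the gene of CD45. There were 13412, of which isotype tumors gave 8101 (932 to 1931 each) and B20-4.1.1 tumors 5311 (80 to 1002 each), and 3 B20-4.1.1 tumors had fewer than 300. Immune cells, with at least 1 Ptprc UMI and at most 1 of the epithelial trio, numbered 3799 and served as the background for RNA free in the cell suspension. Luminal markers in the epithelial cells summed to 55.4 to 73.6 UMIs per 10000 in isotype and to 72.7 to 109 in B20-4.1.1 tumors. That sum includes Epcam, Krt8 and Krt18, which chose the cells, so its height was set in part by the gate. Its other genes, Krt19, Cldn3, Cldn4 and Cdh1, had not been used to choose the cells and were not summed apart. Basal markers summed to 0.323 to 0.620 per 10000 in isotype and to 0.625 to 2.03 in B20-4.1.1 tumors. The part of these shifts in the results below was not tested. Macrophage, neutrophil and T cell markers in the epithelial cells reached at most 0.970, 3.74 and 0.752 per 10000. No barcode was shared by tumors of a pool, and 94 were shared over the 90 pairs of tumors from different pools.

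Caseins assemble into micelles that carry calcium and phosphate, and Csn3 encodes kappa-casein, which sits on the micelle surface. Alpha-lactalbumin (Lalba) is the regulatory subunit of lactose synthase, and whey acidic protein (Wap) is an abundant whey protein of rodent milk. In the normal gland these genes are switched on in pregnancy and lactation by prolactin acting through JAK2 and STAT5, with glucocorticoid, and are shut down at involution. PyMT tumors arise from luminal epithelium, and parts of them can keep secretory features.

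The 5 casein genes lie within 266.5 kb of chromosome 5 (GRCm38, 87666208 to 87932665). Csn2 is on the minus strand and the other caseins on the plus strand. Prr27 and Odam, the other protein-coding genes of that span, had 13 and 91 UMIs in all epithelial cells together, against 2392698 for Csn3 at one end and 62702 for Csn1s1 at the other. Lalba (98480400 to 98482721) and Glycam1 (103562759 to 103565081) are on chromosome 15, Wap (6635482 to 6638637) on chromosome 11 and Pip (41847535 to 41852065) on chromosome 6. RefSeq promoter windows, 250 bases before to 50 bases after a gene's start on GRCm38.p6, matched 7 of the 9 genes, all but Csn1s2b and Csn3. The STAT5 motif TTCNNNGAA reads the same on both strands, and 8.30% of the 32851 windows in the table hold it. It occurred in 5 of the 7 matched windows: at -100 in Csn1s1, at -93 in Csn2, at 20 in Csn1s2a, at -145 in Glycam1, and at both -140 and -42 in Pip, where position 0 is the first base after the 250. Lalba and Wap had no match in this window. The windows of the caseins that varied most between tumors and of Lalba are shown because the results turn on these genes. Capitals mark the motif, and each sequence reads 5′ to 3′ on the strand of its gene.
Csn1s1, chr5:87665958-87666257, plus strand: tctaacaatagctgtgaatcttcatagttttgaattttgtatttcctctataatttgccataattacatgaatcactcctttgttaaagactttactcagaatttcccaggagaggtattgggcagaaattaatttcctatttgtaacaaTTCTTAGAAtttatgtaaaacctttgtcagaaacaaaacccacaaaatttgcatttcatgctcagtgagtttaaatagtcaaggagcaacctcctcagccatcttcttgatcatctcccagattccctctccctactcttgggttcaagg
Csn2, chr5:87699376-87699675, minus strand: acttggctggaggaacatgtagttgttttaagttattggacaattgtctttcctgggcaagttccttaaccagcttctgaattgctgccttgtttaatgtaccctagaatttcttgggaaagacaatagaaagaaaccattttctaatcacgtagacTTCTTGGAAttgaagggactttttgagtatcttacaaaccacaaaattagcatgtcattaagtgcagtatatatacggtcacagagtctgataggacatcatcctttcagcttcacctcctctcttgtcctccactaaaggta
Csn1s2a, chr5:87774200-87774499, plus strand: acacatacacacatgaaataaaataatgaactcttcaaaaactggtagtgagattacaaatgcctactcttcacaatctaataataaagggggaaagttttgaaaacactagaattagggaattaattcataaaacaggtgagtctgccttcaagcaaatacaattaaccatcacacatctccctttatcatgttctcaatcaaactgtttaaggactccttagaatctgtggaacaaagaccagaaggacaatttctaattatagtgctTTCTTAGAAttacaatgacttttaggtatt
Lalba, chr15:98482634-98482933, minus strand: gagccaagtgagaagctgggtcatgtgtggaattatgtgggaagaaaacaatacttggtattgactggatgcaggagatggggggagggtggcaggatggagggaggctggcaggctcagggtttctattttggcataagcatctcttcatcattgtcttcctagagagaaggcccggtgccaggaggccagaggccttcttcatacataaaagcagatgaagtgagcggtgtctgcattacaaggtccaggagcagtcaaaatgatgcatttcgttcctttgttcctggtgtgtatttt
The Csn1s2a window ends before the start of the gene in the other annotation used here (87774567), so its match lies upstream of that start. For Csn2 that annotation puts the start at 87699630, within the window and ahead of the match, so the match lies inside the gene there. A match is a description of letters and was not tied to any factor in these cells.

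All 9 genes were higher in epithelial than in immune cells. The log2 difference ran from 4.34 (SE 0.549) for Csn2 to 5.69 (SE 0.145) for Csn3, with tumor as a block, and every edgeR adjusted p was at or below 4.76e-07. Of 12469 genes tested, 42.4% were called higher and 35.8% lower in epithelial cells by the same rule, 78.2% in all. In single tumors the epithelial level was above the immune level in 15 of 15 for Csn1s1, Csn1s2a, Csn1s2b, Csn3, Lalba and Wap, in 13 for Csn2, in 12 for Pip and in 10 for Glycam1. Immune cells still held these transcripts. Csn3 stood at 2.18 to 6.37 UMIs per 10000 there and Lalba at 0.267 to 0.611, while Glycam1 was at 0 in 10 tumors and Pip at 0 in 11.

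**Figure D1:**
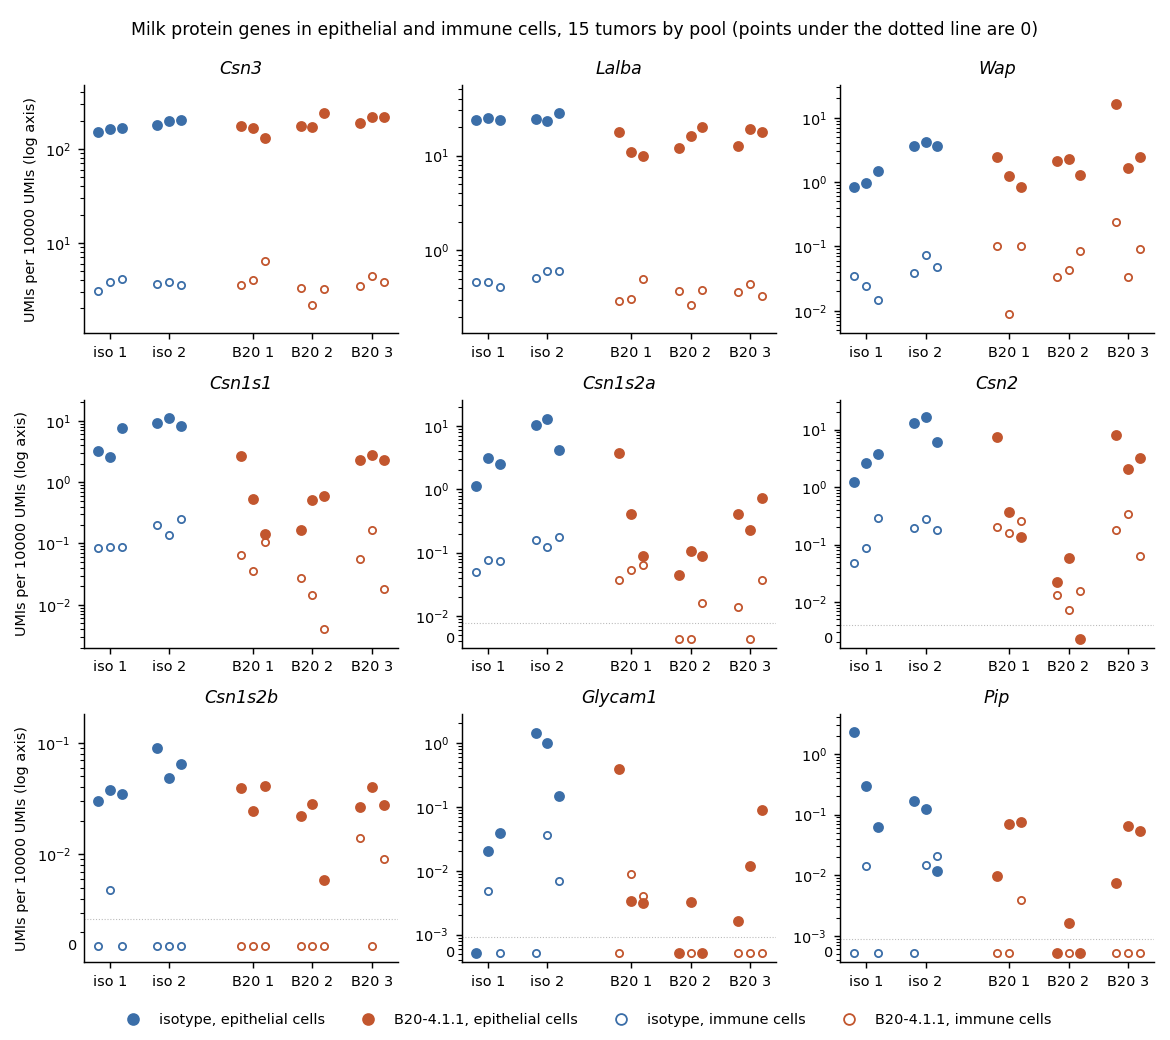
UMIs per 10000 UMIs (log axis) of the 9 genes in epithelial cells (filled) and immune cells (open) of the 15 tumors, grouped by pool (iso 1 and iso 2, isotype; B20 1 to B20 3, B20-4.1.1), with values of 0 drawn under a dotted line. Csn3 sits between 131 and 240 in every tumor, Lalba separates the treatment groups without overlap, and the pool means of Csn1s1, Csn1s2a and Csn2 run from 0.426 to 9.45, from 0.0798 to 9.26 and from 0.0266 to 11.9.

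Csn3 was the most abundant of the 9 on this scale, which counts 3′ molecules and is not divided by gene length. Its epithelial level was 152 at the lowest, 174 at the median and 204 at the highest UMIs per 10000 in isotype tumors. In B20-4.1.1 tumors the lowest, median and highest levels were 131, 177 and 240. The groups overlapped throughout, and edgeR gave a log2 fold change of B20-4.1.1 over isotype of 0.14 with SE 0.140 (adjusted p = 0.513). Nearly every epithelial cell had a Csn3 UMI, 95% to 99.7% by tumor, but so did 71.9% to 89.9% of immune cells, so detection alone says little for this gene. At least 10 Csn3 UMIs were found in 12170 of the 13412 epithelial cells.

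Lalba separated the treatment groups. Its level was 23.3 at the lowest, 24.0 at the median and 27.9 at the highest UMIs per 10000 in isotype tumors, against 9.83, 16.2 and 20.02 in B20-4.1.1 tumors. Every B20-4.1.1 tumor was below every isotype tumor, a pattern that 1.27% of the 12232 genes tested showed, while 1.49% showed the opposite one. The mean fell from 24.7 ± 1.69 (SD, n = 6) to 15.2 ± 3.84 (SD, n = 9), and edgeR put the change at -0.63 on the log2 scale (SE 0.154, adjusted p = 0.0140). A UMI of Lalba was found in 76.9% ± 2.03 of isotype and 64.6% ± 5.85 of B20-4.1.1 epithelial cells, against 26.0% ± 3.97 and 17.9% ± 2.396 of immune cells (SD over 6 and 9 tumors). Median epithelial depth ran from 7428 to 11845 UMIs per cell in B20-4.1.1 tumors and from 7524 to 9433 in isotype tumors. With every cell thinned to 2500 UMIs the shares were 63.7% and 49.9% in epithelial and 13.1% and 9.41% in immune cells. With pool as a random block the log2 fold change of Lalba was -0.67 (SE 0.279, voom adjusted p = 0.239).

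Csn1s1, Csn1s2a and Csn2, which encode the alpha-S1, an alpha-S2-like and the beta-casein, were far more variable. Csn1s1 was at 3.16, 2.61 and 7.56 UMIs per 10000 in the tumors of isotype pool 1 and at 9.06, 11.1 and 8.17 in those of isotype pool 2. The B20-4.1.1 tumors had 2.65, 0.533 and 0.142 in pool 1, then 0.166, 0.517 and 0.594 in pool 2, and 2.30, 2.74 and 2.29 in pool 3. Of the 9 B20-4.1.1 tumors, 7 were below the lowest isotype tumor, and the other 2 overlapped it narrowly. Csn1s1 fell by 2.29 on the log2 scale (SE 0.560, edgeR adjusted p = 0.0138).

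Csn1s2a was at 1.15, 3.13 and 2.54 UMIs per 10000 in isotype pool 1 and at 10.4, 13.2 and 4.16 in isotype pool 2. In B20-4.1.1 pools 1, 2 and 3 it was at 3.70, 0.404 and 0.0881, at 0.0442, 0.107 and 0.0882, and at 0.415, 0.227 and 0.730. A single B20-4.1.1 tumor, tumor 1 of pool 1, lay within the isotype range. Csn1s2a fell by 3.06 (log2, SE 0.771, edgeR adjusted p = 0.0157), and by 4.28 without that tumor (adjusted p = 0.000791).

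Csn2 was at 1.20, 2.63 and 3.81 UMIs per 10000 in isotype pool 1 and at 12.9, 16.6 and 6.13 in isotype pool 2. The B20-4.1.1 tumors had 7.48, 0.362 and 0.135 in pool 1, then 0.0221, 0.0577 and 0 in pool 2, and 8.15, 2.10 and 3.20 in pool 3. Here the groups overlapped broadly, and Csn2 was not called (-1.52, SE 0.960, edgeR adjusted p = 0.286). The tumor at 0 had 157 epithelial cells with 1701548 UMIs. In B20-4.1.1 tumors the thinned share of epithelial cells with a Csn2 UMI, 3.37% ± 2.83, was no higher than that of immune cells, 4.10% ± 4.27 (SD, n = 9), so the mean share does not separate Csn2 from background. Single tumors went both ways. In tumor 1 of pool 3 the shares were 8.48% and 5.36% and the levels 8.15 and 0.182 per 10000, and in tumor 1 of pool 1 the levels were 7.48 and 0.206. In tumor 3 of B20-4.1.1 pool 1 the 3 casein levels were also near those of its own immune cells, 0.107 for Csn1s1, 0.0637 for Csn1s2a and 0.255 for Csn2.

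Unlike Csn1s1 and Csn1s2a, Wap was not called. It was at 0.851, 2.56 and 4.24 UMIs per 10000 in isotype tumors (lowest, median, highest) and at 0.853, 2.12 and 16.2 with B20-4.1.1. The highest value was that of tumor 1 of pool 3, which held 19523 of the 27937 Wap UMIs of its group and had a Wap UMI in 63.5% of epithelial cells, against 26.3% to 38.9% in the other B20-4.1.1 tumors. Its immune cells also had the highest immune level of Wap, 0.239 per 10000. The change of Wap was 0.54 on the log2 scale (SE 0.617, edgeR adjusted p = 0.578) and turned to -0.45 without that tumor (adjusted p = 0.437).

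Csn1s2b, Glycam1 and Pip were rare, with 581, 3776 and 3126 epithelial UMIs in all. Csn1s2b, the other alpha-S2-like casein, lies between Csn1s2a and Csn3 in the locus but stayed at 0.0301 to 0.0905 UMIs per 10000 in isotype and 0.00588 to 0.0409 in B20-4.1.1 tumors (log2 fold change -0.74, SE 0.285, edgeR adjusted p = 0.0856). Glycam1, a mucin-like glycoprotein secreted in milk and also made by high endothelial venules, was at 1.399, 0.981 and 0.146 per 10000 in isotype pool 2, at 0, 0.0206 and 0.0390 in isotype pool 1, and at 0.0902 or below in all B20-4.1.1 tumors except tumor 1 of pool 1 (0.385). It stood at -2.64 (log2, SE 1.07, edgeR adjusted p = 0.103), and at -4.55 without that tumor (adjusted p = 0.0219). Against isotype pool 1 alone the sign turned, to 1.92, so the lower value rests on isotype pool 2. Of the 14 cells with endothelial markers 0 had a Glycam1 UMI, which allows a share of up to 21.4% of cells with a UMI and sets no limit on cells expressing the gene. Chst4, Madcam1 and Ackr1, which mark those venules, together stayed at or below 0.0123 per 10000 in the epithelial cells.

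Pip, the prolactin-inducible protein of several exocrine secretions, was at 2.27 UMIs per 10000 in tumor 1 of isotype pool 1 and at 0.0119 to 0.301 in the other isotype tumors. B20-4.1.1 tumors ranged from 0 to 0.0755, and the groups overlapped. That 1 tumor held 2105 of the 2938 Pip UMIs of the isotype group, of which a single cell had 1042. Pip fell by 3.64 (log2, SE 0.889, edgeR adjusted p = 0.0138), but without that tumor the value was -1.85 (adjusted p = 0.0916).

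In epithelial cells, then, 4 of the 9 genes were called lower with B20-4.1.1 (Csn1s1, Csn1s2a, Lalba and Pip) and 0 higher, where 6.95% of all genes tested were called lower and 7.41% higher, 14.4% in all. The median log2 fold change of the 9 was -1.52, against -0.01 over all 12232 genes. Because the 9 were picked with earlier results of these data known, the contrast with all genes is a description and not an independent test. These calls rest on tumors as replicates. With pool as a random block, whose estimated correlation was 0.536, voom called none of the 9. Its adjusted p was 0.219 for Csn1s1, 0.195 for Csn1s2a, 0.239 for Lalba and 0.646 for Pip (unadjusted 0.0212, 0.0153, 0.0276 and 0.336), and 0.27% of all genes were called, 0.0654% lower and 0.204% higher (2037 at an unadjusted p under 0.05). With counts summed per pool, edgeR called none of the 9 and none of 13963 genes, of which 1333 had an unadjusted p under 0.05. The pool means of 4 genes, Csn1s1, Csn1s2a, Lalba and Pip, were below both isotype pools in all 3 B20-4.1.1 pools, as were those of 13.5% of all 12232 genes (10.3% were above), each of the 4 with an exact two-sided permutation p of 0.2, the smallest that 2 against 3 pools can give.

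**Figure D2:**
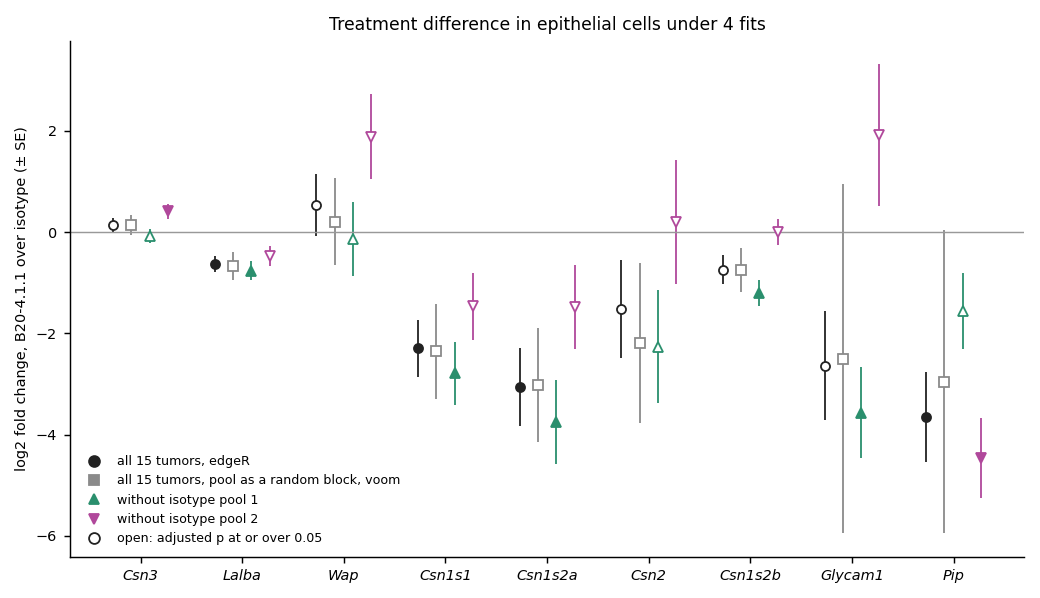
Log2 fold change of B20-4.1.1 over isotype in epithelial cells (± SE) for the 9 genes under 4 fits, with filled symbols for an adjusted p under 0.05. Lalba stays between -0.47 and -0.76, whereas Csn2, Wap, Csn1s2b, Csn3 and Glycam1 change sign when one or the other isotype pool is left out.

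Both isotype pools had the same treatment and yet differed in all 9 genes. Median UMIs per deposited cell were 2192 to 2423 in tumors of isotype pool 1 and 6034 to 6582 in those of isotype pool 2. In the same order, 84.3% to 92.1% and 95.2% to 97.6% of multiplexing UMIs came from a tumor's own oligonucleotides. Cells left out for too few UMIs numbered 1772 to 2138 and 368 to 547 per tumor. Median depth of the epithelial cells kept was 7523.5 to 7787.5 and 8422 to 9432.5 UMIs. The part of library quality in the gene differences was not tested. Called lower in pool 1 than in pool 2 were 8 of the 9, with log2 differences from -0.33 (SE 0.064, Lalba) through -0.53 (SE 0.056, Csn3), -1.36 (SE 0.332, Csn1s1), -2.29 (SE 0.427, Csn1s2a) and -2.49 (SE 0.422, Csn2) to -5.60 (SE 0.963, Glycam1), the adjusted p of these by edgeR being at most 0.00629. Pip was called higher in pool 1 (2.91, SE 1.12, edgeR adjusted p = 0.0483), a call lost in 4 of the 6 fits that left out 1 tumor (without tumor 1 of pool 1: 0.65, adjusted p = 0.552). Over all 12534 genes, 29.5% were called lower and 27.3% higher, so isotype pools differed in 56.8% of genes. Compared with isotype pool 1 alone, B20-4.1.1 tumors had Csn2 at a log2 difference of 0.20 (SE 1.22, edgeR adjusted p = 0.919), Csn1s2b at 0.00 (SE 0.252, adjusted p = 0.997) and Lalba at -0.47 (SE 0.190, adjusted p = 0.0568). Csn1s1 (-1.47, SE 0.663, edgeR adjusted p = 0.0866) and Csn1s2a (-1.48, SE 0.836, adjusted p = 0.167) lost their calls in it. Csn3 was called higher in that comparison (0.41, SE 0.149, adjusted p = 0.0363) and Pip lower (-4.45, SE 0.789, adjusted p = 0.000426). Wap (1.89) and Glycam1 (1.92) stood above 0 there and were not called. Compared with isotype pool 2 alone, Csn1s1 (-2.79), Csn1s2a (-3.75), Csn1s2b (-1.21), Lalba (-0.76) and Glycam1 (-3.56) were called lower. Without B20-4.1.1 pool 2 the single gene called was Lalba (-0.65, adjusted p = 0.0324), and without pool 3 they were Csn1s1 (-3.07, adjusted p = 0.0111) and Lalba (-0.71, adjusted p = 0.0236). Without the 3 tumors of few epithelial cells, which were 56.2% to 61.4% immune, Csn1s1 (-1.86), Lalba (-0.56) and Pip (-3.67) were called.

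Levels in immune cells were also lower with B20-4.1.1 for some of the genes. They had Csn1s2a at 0.109 ± 0.0512 UMIs per 10000 with isotype against 0.0246 ± 0.0242 with B20-4.1.1, and Lalba at 0.512 ± 0.0797 against 0.361 ± 0.0725 (SD, n = 6 and 9). For Wap and Csn3 the immune means were higher with B20-4.1.1, by 0.0433 and 0.155 per 10000. In Wap, 5 of the 9 B20-4.1.1 tumors were above every isotype tumor. When the treatment difference in epithelial cells was set against that in immune cells of the same tumors, none of the 9 and none of 12469 genes was called by edgeR (1817 genes had an unadjusted p under 0.05, and DESeq2 called 135 genes, none of the 9). The interaction was -0.32 (SE 0.243, edgeR adjusted p = 0.544) for Lalba, -1.41 (SE 0.734, adjusted p = 0.378) for Csn1s1 and -1.80 (SE 0.803, adjusted p = 0.318) for Csn1s2a. The share of genes called in it was 0%. The immune cells served as the background for free RNA, and a background that moves in proportion to the epithelial level gives no difference on the log scale, so this test does not bear on the size of the epithelial change. On the linear scale the B20-4.1.1 mean minus the isotype mean was -9.52 UMIs per 10000 in epithelial and -0.151 in immune cells for Lalba, and -5.62 and -0.0855 for Csn1s1.

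The UMIs of Csn1s1, Csn1s2a and Csn2, called casein UMIs in this paragraph, were held by few cells. Those of Csn3 were spread more widely, and the 1% of cells richest in it held 4.44% to 6.99% by tumor. The 1% of epithelial cells richest in Csn1s1, Csn1s2a and Csn2 carried 42.2% to 80.1% of these UMIs in isotype tumors and 26.7% to 72.2% in B20-4.1.1 tumors, and the richest cell of all had 4732 of them. The 2 lowest of these shares came from tumors with 116 and 21 casein UMIs in all. After thinning to 2500 UMIs, cells with at least 10 casein UMIs were 2.51%, 2.24% and 5.01% of the epithelial cells in isotype pool 1 and 7.35%, 10.1% and 8.54% in isotype pool 2. They were 2.95%, 0.379% and 0.352% in B20-4.1.1 pool 1, then 0%, 0.204% and 0.637% in pool 2, and 4.69%, 3.57% and 1.77% in pool 3. The groups overlapped through isotype pool 1, and between 0 and 176 cells of a tumor lay near that limit, with 5 to 20 casein UMIs. The tumor at 0% had 80 epithelial cells, which allows a share of up to 3.75% by counting error. Cells in which the 9 genes took over 10% of all UMIs numbered 66 of 8101 in isotype and 10 of 5311 in B20-4.1.1 tumors. Isotype pool 2 held 54 of them and isotype pool 1 held 12, while B20-4.1.1 pools 1, 2 and 3 held 2, 0 and 8. By tumor their share of epithelial cells was 0.279% to 2.36% with isotype and 0% to 0.699% with B20-4.1.1, so the groups overlapped. Leaving out the richest 1% of cells in each tumor kept 4 genes called, with Csn1s1 at -2.37 and Csn1s2a at -3.22.

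**Figure D3:**
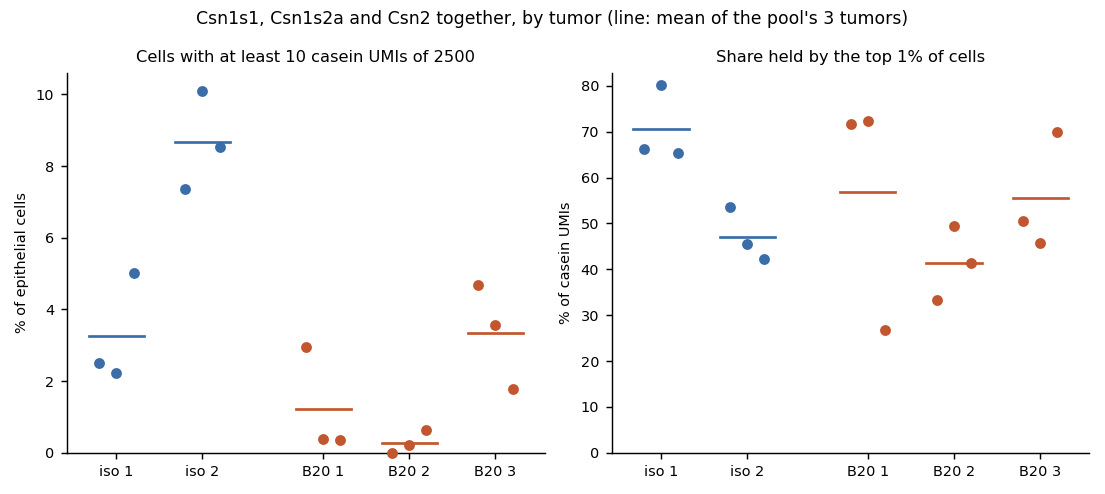
Left, the percentage of epithelial cells with at least 10 UMIs of Csn1s1, Csn1s2a and Csn2 after thinning to 2500 UMIs, and right, the percentage of these UMIs held by the richest 1% of cells, for the 15 tumors by pool, with lines at pool means. Isotype pool 2 stands highest on the left at 7.35% to 10.1%, and B20-4.1.1 pool 2 lowest at 0% to 0.637%.

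Across the epithelial cells of a tumor the highest correlations were those among Csn1s1, Csn1s2a and Csn2 and that of Csn3 with Lalba. Pearson's r of ln(1 + UMIs per 10000), averaged over tumors and given as a description since cells share a library and differ in depth, was 0.49 for Csn1s1 with Csn2, 0.44 for Csn1s2a with Csn2 and 0.33 for Csn1s1 with Csn1s2a. Csn3 with Lalba reached 0.39. Wap stood at 0.26 with Lalba, 0.21 with Csn3, 0.20 with Csn1s1, 0.18 with Csn2 and 0.15 with Csn1s2a. Csn3 with Csn2 stood at 0.06, although both are caseins of 1 locus, and Pip lay between -0.05 and 0.01 with each of the others. The genes most like the sum of the 9 over cells, among 9279 compared, were Trf (0.56), Lcn2 (0.49), Folr1 (0.49), Lrg1 (0.46), Plet1 (0.42), Itm2b (0.40), Muc15 (0.38), Lbp (0.38), Cd81 (0.38) and Ldha (0.36). Trf, the iron carrier transferrin, and Folr1, a folate receptor, are proteins of milk, and the sum is mostly Csn3. For Csn1s1, Csn1s2a and Csn2 alone, a target chosen after the data were seen, the 10 genes were Btn1a1 (0.24), Lao1 (0.19), Ltf (0.19), Ndrg1 (0.17), Muc4 (0.17), Muc15 (0.15), Mfge8 (0.15), Atp2c2 (0.15), Ucp2 (0.15) and Plin2 (0.14). Btn1a1, Mfge8, Plin2 and Muc15 encode proteins of the milk fat globule. Over the 15 tumors, which share 5 pools and 2 treatments, the mean log2 level of the 9 was most like that of Ogfrl1 (0.90), Kmt5a, Cebpz, Eef2k, Zmat2, Nudt5, Ldb3, Larp4, Btn1a1 and Esf1 (0.85), and Btn1a1 was the only gene in both of the last lists.

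Other genes of milk secretion did not share one direction. Their calls are to be read against the 6.95% of all genes called lower and 7.41% called higher, and with pool as a random block none of them held. Of 14 other milk and fat globule proteins tested, 2 rose, Spp1 (osteopontin, log2 fold change 0.85, SE 0.184, edgeR adjusted p = 0.00760) and Ltf (lactoferrin, 0.55, SE 0.181, adjusted p = 0.0483), and 1 fell, Btn1a1 (butyrophilin, -0.94, SE 0.237, adjusted p = 0.0156). With pool as a random block the voom adjusted p was 0.260, 0.318 and 0.232. The list median was 0.20. Among 19 genes of prolactin and STAT5 signaling, 0 rose and 5 fell, at a median of -0.18. The voom adjusted p of the 5 with pool as a random block was 0.0538 to 0.208. The feedback inhibitor Socs2 was at 0.774 to 1.14 UMIs per 10000 in isotype and at 0.256 to 0.597 in B20-4.1.1 tumors (-1.04, SE 0.156, adjusted p = 0.00102). Cish, another inhibitor induced by STAT5, was at 0.153 to 0.212 and at 0.0885 to 0.129 (-0.59, SE 0.0996, adjusted p = 0.00181), so neither overlapped between groups, where 1.27% of all genes had every B20-4.1.1 tumor below every isotype tumor. Ccnd1 (cyclin D1, -0.79) and Erbb4 (-0.99) also fell. The receptor Prlr (0.10, SE 0.305, adjusted p = 0.857), Stat5a (0.02, SE 0.181, adjusted p = 0.950) and Elf5 (-0.05, SE 0.0999, adjusted p = 0.786) were not called.

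Of the 8 genes of lactose synthesis, in which Lalba takes part, 4 rose, namely Ugp2 (0.62), Hk2 (0.67), Pgm2 (0.43) and the glucose transporter Slc2a1 (0.39), and 1 fell (voom adjusted p of the 5 with pool as a random block, 0.0945 to 0.285). Slc2a1 is also in the gene signature of hypoxia that the study used, and the part of hypoxia in these changes was not tested. B4galt1, the catalytic partner of Lalba, was at -0.19 (SE 0.079, edgeR adjusted p = 0.105). Of 17 genes of milk lipid synthesis 2 rose, Scd1 (0.56) and Dgat1 (0.38), and 2 fell, Elovl6 (-0.67) and Gpat4 (-0.45), at a voom adjusted p of 0.126 to 0.426 with that block. Of 9 ion and nutrient transporters 1 rose, Slc3a2 (0.33), and 2 fell, Slc34a2 (-0.70) and Slc30a4 (-0.38), at a voom adjusted p of 0.0951 to 0.239 with the block. Of 12 genes associated with involution 5 rose, among them Cd14 (0.90), Ctsl (0.43), Ctsb (0.35) and Cebpd (0.52). The 1 that fell was Igfbp5 (-0.54), and the list median was 0.38. The voom adjusted p of the 6 with the block was 0.112 to 0.300. Of 9 genes of hormone-sensing luminal cells 1 rose, Ly6a (1.97, voom adjusted p = 0.0977 with pool as a random block), and 0 fell, at a median of 0.76. With pool as a random block that median turned to -0.09, with 5 of the 9 genes below 0. Of 8 neighbors of the casein locus 2 were tested, Smr2 (-0.21) and Sult1d1 (-0.38), and neither was called. Prlr is in the lists of prolactin signaling and of hormone-sensing cells, and Socs3 in those of prolactin signaling and involution. The all-gene median was -0.01 in both fits.

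**Figure D4:**
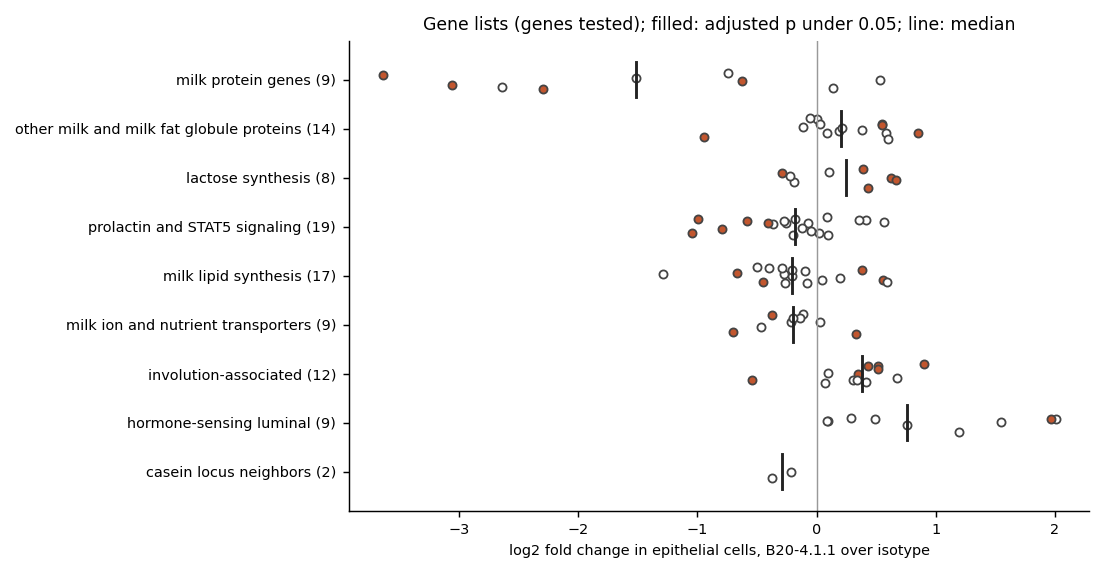
Log2 fold change of B20-4.1.1 over isotype in epithelial cells for the tested genes of each list, filled where the edgeR adjusted p was under 0.05, with a line at each median. The milk protein genes have the lowest median, -1.52, and the list of involution genes has a median of 0.38. The median of the hormone-sensing genes, 0.76, turned to -0.09 with pool as a random block.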

How the data were processed

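Tumors were dissociated, sorted for DAPI-negative cells, labeled with CellPlex oligonucleotides and run on Chromium 3′ v3.1 chemistry. The authors counted reads with Cell Ranger 6.1.2 (file header; mm10 per the labels) and deposited a matrix of raw UMI counts for each tumor, not normalized. Cells were kept here from 2500 UMIs up to the upper limit that the methods of the study set, if mitochondrial UMIs were no more than 20%. Epithelial UMIs summed to 904033 to 18442836 per tumor. Levels are UMIs per 10000 UMIs of the gate. Counts summed per tumor were tested with edgeR 4.0.16 (TMM, filterByExpr, quasi-likelihood F test, two-sided, Benjamini-Hochberg over all genes tested, threshold 0.05) in R 4.3.3. The SE is the log2 fold change over the root of F. DESeq2 1.42.0 and limma 3.58.1 (voom, pool as random block) were alternatives. Leaving out the 3 tumors of few epithelial cells or the richest 1% of cells, the casein target of the likeness and the permutation over pool means were added after the data were seen. The tests were checked on counts simulated independently for each tumor, with no pool effect. That check therefore does not bear on calls that arise because tumors share a pool. Doublets were not called separately: the gates require no Ptprc or nearly no epithelial UMIs. Positions are from GENCODE on GRCm38. Protein sequences were not used here. All 9 members are named, and from each other list at most 4 called genes of smallest p or, with none called, the 2 of highest level. Prlr, Stat5a, Elf5, B4galt1 and Igfbp5 were added after their values were seen. The members and lists were chosen with earlier results of these data known. Intervals and limits from a count of 0 cover counting error only.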

Additional observations from a re-analysis of the deposited data

Results flagged for a closer look

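Levels and detected shares of the 9 genes in epithelial cells were examined for tumors far from the rest of their group, over 36 sets of 6 or 9 tumors, and 6 sets had one. Chance flags about 1 in 20. Of the levels, 3 were those of single B20-4.1.1 tumors far above the others. Csn1s2a stood at 3.70 UMIs per 10000 in tumor 1 of pool 1, with the next tumor at 0.730. Glycam1 stood at 0.385 in that same tumor, with the next at 0.0902. Wap stood at 16.2 in tumor 1 of pool 3, with the next at 2.50, and its share of cells with a Wap UMI there, 63.5%, was also far from the next, 38.9%. Among isotype tumors, Pip stood at 2.27 in tumor 1 of pool 1, with the next at 0.301, and Lalba at 27.9 in tumor 3 of pool 2, with the next at 25.1.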

How the results depend on the processing

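The 4 calls of the treatment comparison stayed at 4 genes with DESeq2, other size factors, no filter, thinned cells, the members left out of library sizes, all deposited cells and both other epithelial gates. The count was 0 with pool as a random block and 0 with sums per pool, and ran from 1 to 5 with a pool or a tumor left out. It takes any of the 9 genes called in either direction, not only the same 4. The 9 calls against immune cells stayed at 8 or 9, every member tested being called. Those between the isotype pools stayed at 8 or 9, Pip being lost with DESeq2 and with 4 of the 6 tumors left out in turn. The leave-one-out fits without B20-4.1.1 pool 2 or pool 3 and without isotype pool 2 gave 1, 2 and 2 genes. Of the 2 without isotype pool 2, Pip was lower and Csn3, which is not among the 4, was higher. The 5 without isotype pool 1 held Csn1s2b and Glycam1 but not Pip. The interaction stayed at 0. Csn1s2b and Glycam1 were not tested in thinned cells in the treatment comparison. Fold changes that turned sign in the treatment comparison came with a pool or tumor left out, over ranges of -1.21 to 0.00147 for Csn1s2b, -2.35 to 0.20 for Csn2, -0.0767 to 0.41 for Csn3, -0.54 to 1.89 for Wap (-0.14 without isotype pool 1, -0.45 without 1 tumor) and -4.55 to 1.92 for Glycam1. In the interaction, Csn3 (-0.01) turned to 0.0253 with DESeq2 and 0.0252 with other size factors, 0.00048 with a stricter immune gate, and up to 0.24 with a pool left out (from -0.16; 0.23 without isotype pool 2). Pip (-0.55) turned to 0.97 with the stricter gate and ranged from -1.98 to 2.01 with a pool left out (0.32 without B20-4.1.1 pool 1). Glycam1 ranged from -1.41 to 1.20 (0.46 without B20-4.1.1 pool 1) and Csn1s2b from -4.33 to 1.46. The cause was not tested. Thinning moved 9 of 18 detected shares by more than 1 SD and no level. No paired analysis was possible because the labels give no replicate numbers and the numbers used here only name pools. A level that rests on 3 UMIs lay between 0.00163 and 0.0332 per 10000 by tumor, and 5 pools limit every treatment comparison.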
